A study of Mus musculus with 4 samples.

Results

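The 10 genes described here mark melanocytes, the pigment cells of the cochlea: *Tyr*, *Tyrp1*, *Dct*, *Mlana*, *Slc45a2*, *Gpr143*, *Oca2*, *Mitf*, *Kit* and *Ednrb*. Every non-control probe that carries one of these names in the array files was taken, whatever its value, which gave 14 of the 39429 probes and 10 of the 30028 names on the array. Of the 10 genes, 6 had 1 probe and 4 (*Tyr*, *Dct*, *Mitf* and *Ednrb*) had 2. In the cochlea, melanocytes are the intermediate cells of the stria vascularis, the secretory epithelium of the lateral wall, where their potassium channel KCNJ10 helps to set up the endocochlear potential that hair cells run on. Melanin is made in melanosomes from tyrosine, by the enzyme tyrosinase and the related enzymes TYRP1 and DCT, while the transcription factor MITF drives the genes of the pigment pathway and signals through the receptors KIT and EDNRB are needed for melanoblasts to survive and migrate. The arrays measured RNA of the whole cochlea, so the values do not tell the stria from pigment cells elsewhere in the tissue, and in such bulk RNA fewer cells of a type and less RNA per cell cannot be told apart.

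The arrays came from a study of outer hair cell (OHC) loss. Transgenic *Prestin*-*hDTR* mice (OHC-TRECK in the labels) of a single founder line express a human diphtheria toxin (DT) receptor, modified human HB-EGF, under the promoter of prestin (*Slc26a5*), the motor protein of OHCs, so that DT kills these cells. There were 4 groups, all of the B6J strain, and 5 weeks of age: wild-type and *Prestin*-*hDTR* mice, each untreated or treated with DT. The treated mice had received 50 μg of DT per kg body weight 7 days before the cochleae were dissected. Each group was measured on 1 array of pooled RNA. The labels give 8 per group, 4 females and 4 males, and whether these are 8 mice or 8 cochleae was not settled here. With 1 array per group no difference between groups has a replicate check, no test was made, and precision is limited by how few arrays there are.

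The levels given below are log2 values of the background-subtracted intensity of a probe divided by the 75th percentile of the probes of its array, so that 0 is the level of that percentile, and each level is compared only with the same probe on the other arrays. Between 62.3% and 70.6% of all probes were well above background on an array. Among probes spotted repeatedly and above background, the median SD between spots of an array was 0.061 to 0.071, which gives a difference between 2 single spots an SD of 0.095 on the log2 scale. This is spot error and leaves out the spread between mice. The treatment was visible in OHC markers: 4 of the 5 in the list were lower by 2-fold or more in DT-treated than in untreated *Prestin*-*hDTR* mice, with *Strc*, which encodes the stereocilin of OHC bundles, at -3.10 on the log2 scale. The remaining marker, *Slc26a5*, was dim and not well above background on the DT-treated *Prestin*-*hDTR* array. It was lower there by at least 0.39.

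Because MITF is known to bind the sequence TCATGTG in front of pigment genes, the 250 bases before the start site of each gene were searched for these letters on both strands (the reverse reads CACATGA). Of the 10 genes, 7 had such a sequence in the RefSeq promoter table (GRCm38.p6) and *Mlana*, *Slc45a2* and *Gpr143* had none. The letters occurred in 3 of these 7 genes, the enzymes *Tyr*, *Tyrp1* and *Dct*, against 3.25% of all 32851 promoters in the table and 3.72% of all 27025 genes. Since the sequence was picked for being known from pigment genes, these shares describe it and are no test of enrichment. The 3 promoters are shown because the levels of these enzymes did not move alike in the arrays, with the matches in capitals. They lie at chr7:87493513-87493762 on the minus strand (*Tyr*), chr4:80833963-80834212 on the plus strand (*Tyrp1*) and chr14:118052247-118052496 on the minus strand (*Dct*), and are written 5′ to 3′ up to the last base before the start site.
Tyr: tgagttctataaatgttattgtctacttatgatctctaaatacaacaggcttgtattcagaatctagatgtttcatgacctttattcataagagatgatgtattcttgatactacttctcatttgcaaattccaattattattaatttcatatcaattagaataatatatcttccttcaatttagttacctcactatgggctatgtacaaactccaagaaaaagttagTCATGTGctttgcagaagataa
Tyrp1: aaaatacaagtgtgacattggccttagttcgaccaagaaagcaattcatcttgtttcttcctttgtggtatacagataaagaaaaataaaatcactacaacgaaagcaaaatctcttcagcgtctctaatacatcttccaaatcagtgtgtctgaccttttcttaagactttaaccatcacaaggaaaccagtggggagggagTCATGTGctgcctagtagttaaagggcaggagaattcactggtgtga
Dct: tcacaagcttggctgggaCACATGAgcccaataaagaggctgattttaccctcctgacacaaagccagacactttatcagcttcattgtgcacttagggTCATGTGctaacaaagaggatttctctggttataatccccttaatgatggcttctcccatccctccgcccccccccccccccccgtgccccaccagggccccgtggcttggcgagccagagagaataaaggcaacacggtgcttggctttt
Counted back from the start site, the match began at position -22 in *Tyr* and at position -47 in *Tyrp1*. *Dct* had 2 matches, on opposite strands, at positions -151 and -232. No match was found in the sequences of *Mitf*, *Kit*, *Ednrb* and *Oca2*, which says only that these letters are not in this stretch. A match is a description of the sequence and not of binding in these mice.

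A pair of probes is shown with their own sequences. By their brighter probes, *Tyr* and *Ednrb* were the members with the largest differences after DT in *Prestin*-*hDTR* mice, and each was read by 2 probes. For *Ednrb* the dimmer probe is shown, which differed by 0.48 there, against 0.70 for the brighter one. Both read 5′ to 3′ in the sense of the transcript and are given at the positions in the array files (mm9). The *Tyr* probe A_66_P135323 lies at chr7:94632414-94632473 on the minus strand and the *Ednrb* probe A_55_P2089710 at chr14:104220870-104220929 on the minus strand.
Tyr probe: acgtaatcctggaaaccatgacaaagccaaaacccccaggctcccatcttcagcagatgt
Ednrb probe: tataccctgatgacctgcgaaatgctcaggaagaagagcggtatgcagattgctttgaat
The other *Tyr* probe starts 56149 bases away on the genome and the other *Ednrb* probe 6386 bases away, so the probes of each pair share no base. The 2 *Dct* probes overlap by 44 bases and are close to repeated readings of the same stretch.

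On all 4 arrays, 12 of the 14 probes were well above background, and these covered 9 of the 10 genes. The exceptions were the dim probe of *Tyr* and the probe of *Oca2*. None of the spots was saturated. Melanocyte RNA was thus measurable in each group, and the intermediate cell channel *Kcnj10* was well above background on every array, at 3.60 and 3.70 in untreated and DT-treated wild-type and 3.68 and 3.95 in untreated and DT-treated *Prestin*-*hDTR* mice. For genes with 2 probes, the probe with the higher mean level over the arrays was used where the gene is counted once. The 2 probes of a gene never differed by 1 or more on the log2 scale in their ratio within a comparison.

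**Figure D1:**
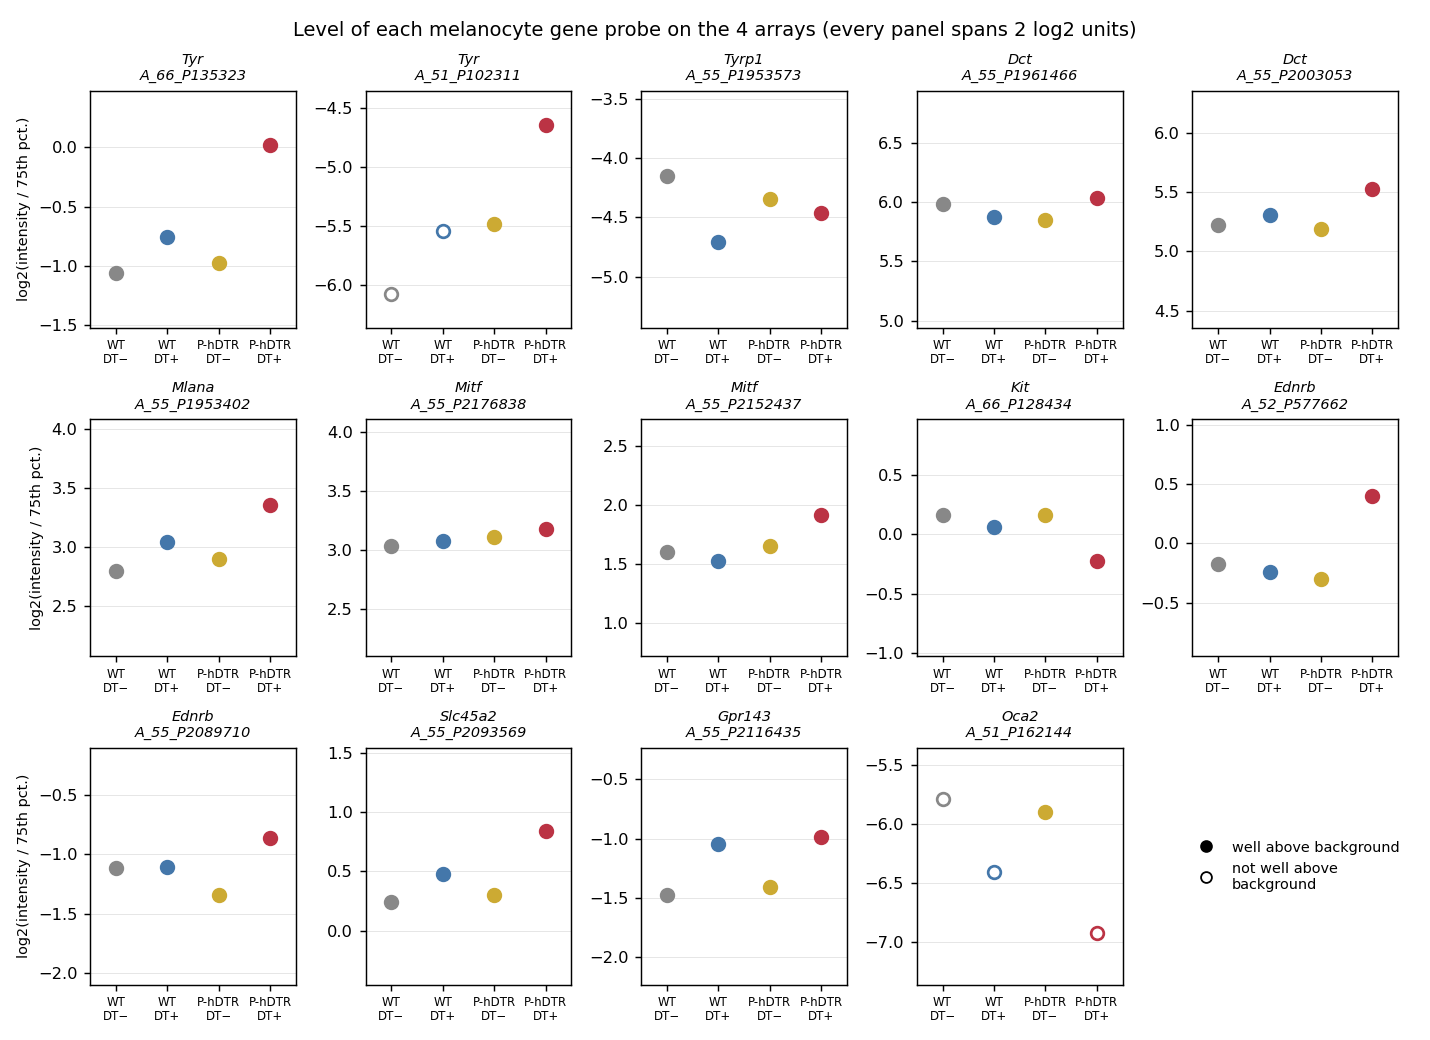
Level of each of the 14 probes on the 4 arrays, as log2 of intensity over the 75th percentile of the array, in mice without (DT−) and with (DT+) diphtheria toxin, where WT is wild-type and P-hDTR is *Prestin*-*hDTR*. Each point is 1 array, all panels span 2 log2 units, and open points were not well above background. The DT-treated *Prestin*-*hDTR* array holds the highest point in 10 of the 12 probes measured on all arrays, and *Kit* is lowest there.

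*Tyr* encodes tyrosinase, the rate-limiting enzyme of melanin synthesis. Its brighter probe, shown above, stood at -1.06 in untreated and -0.76 in DT-treated wild-type mice, at -0.97 in untreated *Prestin*-*hDTR* mice and at 0.02 in DT-treated *Prestin*-*hDTR* mice. The last array was thus the highest, by 0.78 over the nearest other array, whereas the other 3 arrays lay within 0.31 of each other. DT-treated *Prestin*-*hDTR* mice were 1.99-fold above untreated *Prestin*-*hDTR* mice and 1.71-fold above DT-treated wild-type mice. The smaller ratio between DT-treated and untreated wild-type mice was 1.24-fold.

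The dim *Tyr* probe A_51_P102311 (chr7:94576265-94576324, minus strand) was spotted 10 times per array, and 2 spots marked as outliers, 1 on each untreated array, were left out. Its mean over spots was -6.07 ± 0.18 (SD, n = 9 spots) on the untreated and -5.54 ± 0.080 (n = 10 spots) on the DT-treated wild-type array, -5.48 ± 0.30 (n = 9 spots) in untreated *Prestin*-*hDTR* and -4.64 ± 0.24 (n = 10 spots) in DT-treated *Prestin*-*hDTR* mice. The probe was not well above background in both wild-type groups. The spots of DT-treated *Prestin*-*hDTR* mice ran from -4.89 to -4.19 and those of untreated *Prestin*-*hDTR* mice from -5.75 to -4.72, which overlap through a single spot of the latter. The ratio between these arrays was 1.79-fold, and DT-treated *Prestin*-*hDTR* mice were at least 1.78-fold above DT-treated wild-type mice, the latter taken at the lowest signal of any probe well above background. The left-out spots had intensities of 175 (untreated wild-type) and 121 (untreated *Prestin*-*hDTR*), against 105 to 171 over the spots of DT-treated *Prestin*-*hDTR* mice. The overlapping spot lay at the array position of the left-out wild-type spot. At the positions of the left-out spots, DT-treated *Prestin*-*hDTR* mice had their highest values, 166 and 171, which were kept. The DT-treated wild-type spots at these positions were 66.2 and 68.3. The spots of an array share its RNA and so describe the precision of that array only.

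**Figure D2:**
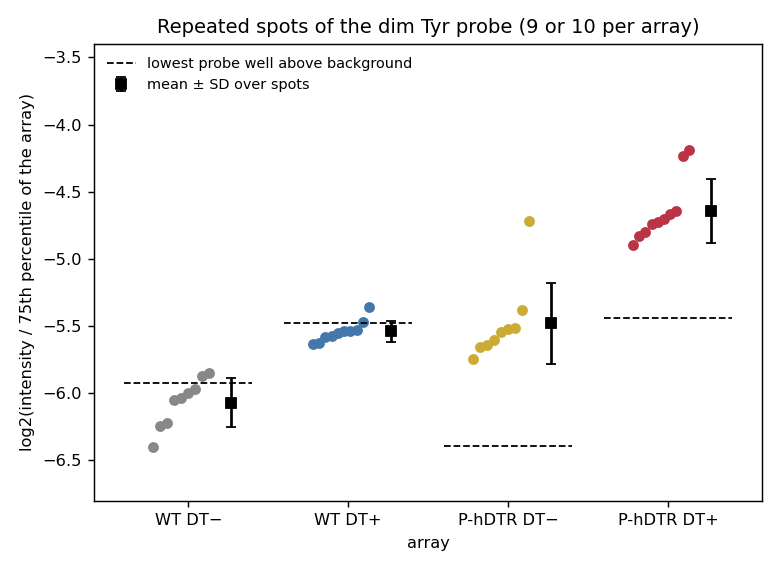
The spots of the dim *Tyr* probe on each array, as log2 of intensity over the 75th percentile of the array (coloured points), with their mean and SD (squares and bars). Dashed lines give the lowest signal of any probe well above background on that array. Spots of DT-treated *Prestin*-*hDTR* mice lie between -4.89 and -4.19, and both wild-type means lie below the dashed line.

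The related enzymes *Tyrp1* and *Dct* did not share the *Tyr* values. *Tyrp1* (A_55_P1953573, chr4:80497524-80497583, plus strand), which encodes a melanosomal enzyme that acts late in eumelanin synthesis, stood at -4.15 in untreated and -4.71 in DT-treated wild-type mice, and at -4.35 in untreated and -4.47 in DT-treated *Prestin*-*hDTR* mice. Its highest array was thus untreated wild-type and its lowest DT-treated wild-type, with the 2 *Prestin*-*hDTR* arrays between them. The DT-treated array was lower by 1.47-fold in wild-type and by 1.09-fold in *Prestin*-*hDTR* mice. This probe was faint, at intensities of 121 to 153. With another background correction (normexp) its log2 ratio after DT in wild-type mice was -0.34 in place of -0.56.

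*Dct* encodes dopachrome tautomerase, which converts dopachrome in the same pathway. Its probe A_55_P1961466 (chr14:118412029-118412088, minus strand) stood at 5.98, 5.87, 5.85 and 6.03 (wild-type without and with DT, then *Prestin*-*hDTR* without and with DT). The overlapping probe A_55_P2003053 (chr14:118412013-118412072, minus strand) stood at 5.22, 5.31, 5.19 and 5.52 in the same order. DT-treated *Prestin*-*hDTR* mice were the highest by both probes, at 1.14-fold and 1.26-fold of untreated *Prestin*-*hDTR* mice, but the first probe was only 0.05 above untreated wild-type mice, which is less than the error of a single spot. In wild-type mice the 2 probes differed in sign after DT, at -0.11 and 0.08.

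Among the melanosome membrane proteins, *Mlana*, *Slc45a2* and *Gpr143* were each higher in both DT-treated arrays than in both untreated ones. *Mlana* (A_55_P1953402, chr19:29782737-29782796, plus strand) encodes a protein that acts in melanosome maturation with the matrix protein PMEL. It stood at 2.80 in untreated and 3.04 in DT-treated wild-type mice, and at 2.90 in untreated and 3.36 in DT-treated *Prestin*-*hDTR* mice. The DT-treated array was 1.18-fold higher in wild-type and 1.37-fold higher in *Prestin*-*hDTR* mice.

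*Slc45a2* (A_55_P2093569, chr15:10958929-10958988, plus strand) encodes a melanosome transporter whose loss causes albinism. Its level was 0.24 in untreated and 0.48 in DT-treated wild-type mice, and 0.30 in untreated and 0.85 in DT-treated *Prestin*-*hDTR* mice. The order of the arrays was the same as for *Mlana*, and the ratio after DT was 1.18-fold in wild-type and 1.46-fold in *Prestin*-*hDTR* mice. *Gpr143* (A_55_P2116435, chrX:149243130-149243189, plus strand), the receptor mutated in ocular albinism, stood at -1.48 and -1.05 in untreated and DT-treated wild-type mice and at -1.41 and -0.99 in untreated and DT-treated *Prestin*-*hDTR* mice. Its ratio after DT was nearly equal in both genotypes, 1.35-fold in wild-type and 1.34-fold in *Prestin*-*hDTR* mice, and the 2 DT-treated arrays differed by 0.06.

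Both arrays with DT lay above both without it in 4 of the 9 genes (*Tyr*, *Mlana*, *Slc45a2* and *Gpr143*) and below both in 2 (*Tyrp1* and *Kit*). Among all 23688 probes well above background on all arrays, 14.9% lay above in this way and 24.1% below. The remaining melanosome gene, *Oca2* (A_51_P162144, chr7:63791667-63791726, plus strand), which encodes a melanosome membrane transporter, was well above background only on the untreated *Prestin*-*hDTR* array, at -5.90. Its signals on the other arrays, -5.79 and -6.41 on the untreated and DT-treated wild-type arrays and -6.92 on that of DT-treated *Prestin*-*hDTR* mice, were not well above background, and no fold was taken.

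*Mitf*, the transcription factor of the lineage, differed little. Its brighter probe A_55_P2176838 (chr6:97971229-97971288, plus strand) stood at 3.03 and 3.08 in untreated and DT-treated wild-type mice and at 3.11 and 3.17 in untreated and DT-treated *Prestin*-*hDTR* mice, a range over the arrays of 0.14. The other probe, A_55_P2152437 (chr6:97968501-97968560, plus strand), stood at 1.60, 1.53, 1.65 and 1.92 in the same order. DT-treated *Prestin*-*hDTR* mice were highest by both probes, yet by 1.04-fold and 1.20-fold over untreated *Prestin*-*hDTR* mice. The probes start 2728 bases apart, and which transcripts of *Mitf* each reads was not analysed here.

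The receptors went opposite ways. *Ednrb*, the endothelin B receptor, stood at -0.17 and -0.24 in untreated and DT-treated wild-type mice, at -0.30 in untreated *Prestin*-*hDTR* mice and at 0.40 in DT-treated *Prestin*-*hDTR* mice by its brighter probe A_52_P577662 (chr14:104214484-104214543, minus strand). The last array stood apart from 3 others that lay within 0.13 of each other. It was 1.62-fold above untreated *Prestin*-*hDTR* and 1.56-fold above DT-treated wild-type mice. The probe shown above gave -1.12, -1.11, -1.34 and -0.86 in the same order of arrays, with ratios of 1.40-fold and 1.19-fold in those comparisons.

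*Kit*, the receptor for stem cell factor, was the only one of the 9 genes with its lowest level in DT-treated *Prestin*-*hDTR* mice. Its probe A_66_P128434 (chr5:76052394-76052453, plus strand) stood at 0.17 and 0.06 in untreated and DT-treated wild-type mice, and at 0.16 and -0.22 in untreated and DT-treated *Prestin*-*hDTR* mice. The last array was 1.31-fold below untreated *Prestin*-*hDTR* and 1.22-fold below DT-treated wild-type mice.

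The first comparison concerns the transgene without DT. In untreated *Prestin*-*hDTR* mice set against the untreated wild-type array, the 9 genes measured on all arrays differed by -0.19 (*Tyrp1*) to 0.10 (*Mlana*), with 5 higher, 4 lower and a median of 0.06. The median over all probes above background on both arrays was -0.01 with an SD of 0.28. None of the 14 member probes passed 2-fold, which 1.01% of all 28327 probes compared did upward and 2.32% downward, and none passed 1.5-fold, which 2.32% did upward and 4.41% downward. By their leading probes, the 9 genes thus differed between the untreated genotypes by less than this SD. The dim *Tyr* probe differed by more, with untreated *Prestin*-*hDTR* mice at least 1.36-fold above untreated wild-type mice (0.45 on the log2 scale), where it was not well above background.

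DT alone was compared in wild-type mice, which lack the receptor transgene. The 9 genes ran from -0.56 (*Tyrp1*) to 0.43 (*Gpr143*), with 5 higher, 4 lower and a median of 0.04, against a median of -0.03 and an SD of 0.26 over all probes. None of the 12 member probes compared passed either threshold, upward or downward. Over all 26727 probes compared, 1.46% were higher and 1.09% lower by 2-fold or more, and 2.95% were higher and 2.86% lower by 1.5-fold or more.

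In DT-treated against untreated *Prestin*-*hDTR* mice, the comparison with OHC loss, 7 of the 9 genes were higher and 2 (*Kit* and *Tyrp1*) lower, over a range of -0.39 to 0.99. Their median was 0.42, against -0.0044 with an SD of 0.35 over all probes above background on both arrays. None of the 14 member probes passed 2-fold, which 2.49% of all 28082 probes compared did upward and 1.35% downward. At 1.5-fold, 3 member probes of 2 genes (both *Tyr* probes and the brighter *Ednrb* probe) were higher, against 4.8% of all probes, and none was lower, against 3.65%. *Tyr* stood at 1.99-fold, just under the 2-fold limit, and passed it (1.01 on the log2 scale) in the authors' own scaled table.

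DT-treated *Prestin*-*hDTR* mice were also set against DT-treated wild-type mice, which received the same toxin and kept their OHCs. Of the 9 genes, 8 were higher and only *Kit* was lower, from -0.29 to 0.78 (*Tyr*), with a median of 0.24 against 0.0065 and an SD of 0.32 over all probes. The median of the genes was 0.13 with another background correction (normexp). None of the 13 member probes compared passed 2-fold, which 1.41% of all 25394 probes did upward and 1.83% downward. At 1.5-fold, the same 3 probes of *Tyr* and *Ednrb* were higher, against 3.95% of all probes, and none was lower, against 4.4%. The dim *Tyr* probe is a lower bound here, since it was not well above background in DT-treated wild-type mice. It entered through the DT-treated *Prestin*-*hDTR* array only and could not have come out lower. This comparison shares the DT-treated *Prestin*-*hDTR* array with the preceding one, so their values are not independent of each other.

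**Figure D3:**
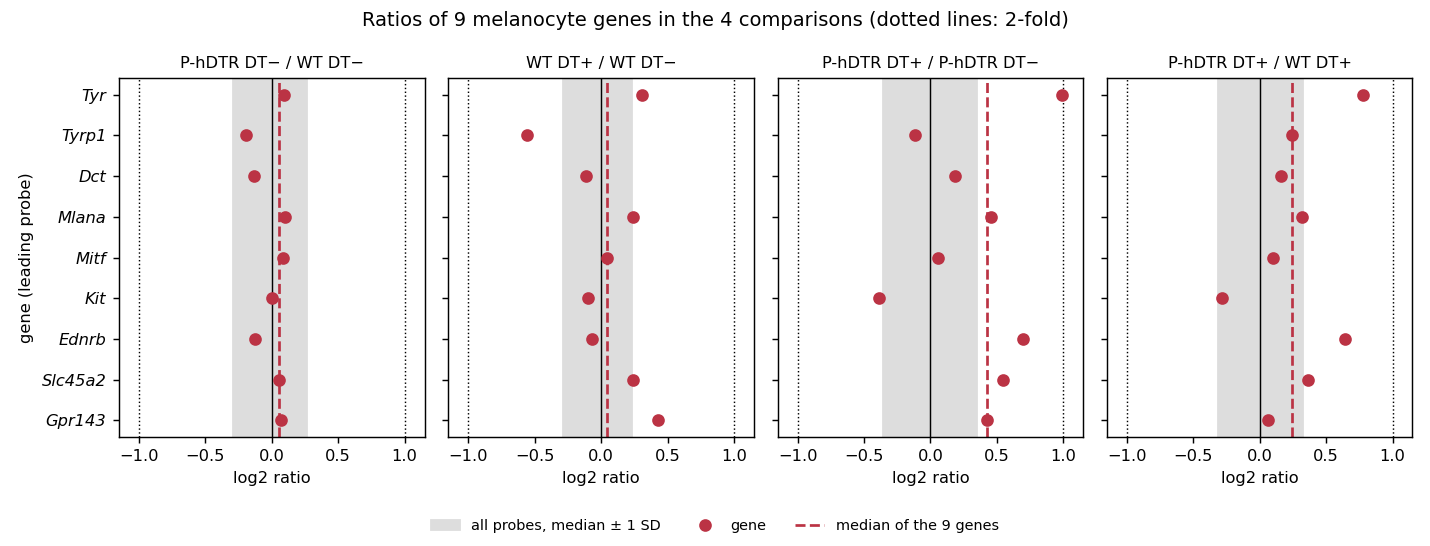
Log2 ratios of the 9 genes measured on all arrays (1 point per gene, leading probe) in the 4 comparisons between arrays. Grey bands give the median ± 1 SD over all probes above background on both arrays, dashed lines the median of the 9 genes (0.06, 0.04, 0.42 and 0.24 from left to right) and dotted lines a 2-fold difference, which no gene passes.

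The DT-treated *Prestin*-*hDTR* array was the highest of the 4 for 7 of the 9 genes by their leading probe and for 10 of the 12 probes measured on all arrays. For *Dct*, *Mitf* and *Gpr143* its lead over the nearest other array was only 0.05, 0.06 and 0.06. These leads are below the SD of 0.095 for a difference between 2 single spots. The same array was also the highest for 32.9% and the lowest for 35.2% of all 23688 probes so measured, so it stood at the ends of the range more often than the others for probes of any kind. The ratio after DT was compared between the genotypes, which share no array here. It was larger in *Prestin*-*hDTR* than in wild-type mice for 7 of the 9 genes, by a median of 0.30, with *Ednrb* (0.77) and *Tyr* (0.69) at the top and *Kit* at -0.28. Over all probes the median of this difference was 0.02 with an SD of 0.37, and 52.9% of them were above 0. *Mitf* (0.02) and *Gpr143* (-0.0066) had nearly equal ratios in both genotypes. For *Tyr*, *Mlana* and *Slc45a2* the ratio was above 0 in both genotypes and larger in *Prestin*-*hDTR* mice. By the leading probes, the sign differed between genotypes for *Ednrb* and for *Dct*. For *Ednrb* the ratio in wild-type mice was only -0.07, and the other probe was above 0 in both genotypes (0.0079 in wild-type and 0.48 in *Prestin*-*hDTR* mice). The sign of *Dct* in wild-type mice was reversed (0.08) with quantile scaling.

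**Figure D4:**
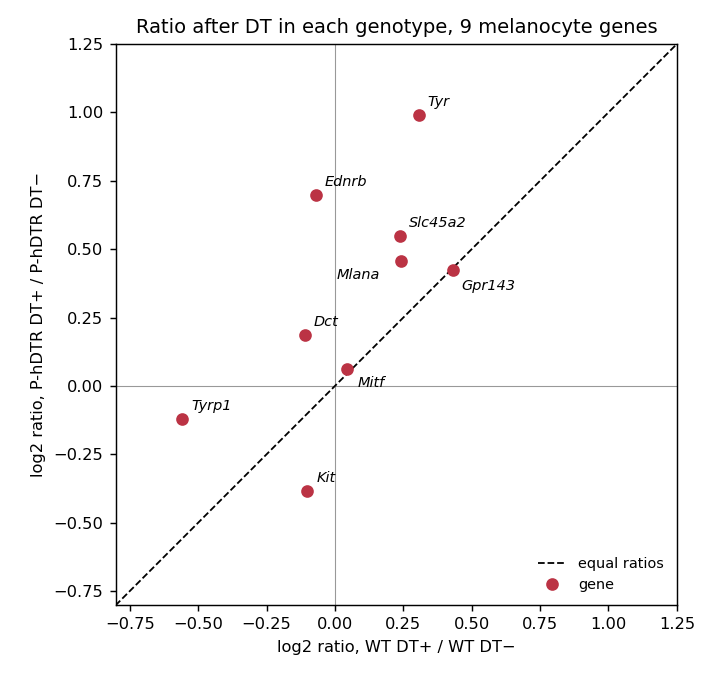
Log2 ratio of the DT-treated to the untreated array in wild-type mice (horizontal) and in *Prestin*-*hDTR* mice (vertical) for the 9 genes. The dashed line marks equal ratios. *Ednrb* and *Tyr* lie farthest above it, by 0.77 and 0.69, and *Kit* lies below it by 0.28.

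Of a list of 9 other genes of melanin synthesis and the melanosome, 8 were measured on all arrays and *Tpcn2*, a melanosome cation channel, on none. In DT-treated against untreated *Prestin*-*hDTR* mice 6 of the 8 were higher and 2 lower, with a median of 0.11 and a range of -0.73 to 1.03. *Gpnmb*, a melanosome glycoprotein that phagocytes also make, was the only one higher by 2-fold, at 1.03 and 1.43 in untreated and DT-treated wild-type and 1.11 and 2.13 in untreated and DT-treated *Prestin*-*hDTR* mice. Its DT-treated *Prestin*-*hDTR* level was thus the highest, and its DT-treated wild-type level was also above both untreated ones. *Pmel*, which forms the fibrils on which melanin is laid down, stood at -0.69, -0.82, -1.10 and -1.03 in the same order of arrays. It was thus highest in untreated wild-type mice and differed by only 0.07 between the *Prestin*-*hDTR* arrays.

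*Trpm1*, a cation channel gene of melanocytes, stood at -0.22 and -0.05 in untreated and DT-treated wild-type mice and at -0.64 and -1.37 in untreated and DT-treated *Prestin*-*hDTR* mice by its brightest probe. It was the gene of this list with the largest difference between the DT-treated arrays, at -1.32, and ran opposite to *Tyr*. The other 2 *Trpm1* probes above background differed by -0.96 and -0.41 in this comparison, and a further probe was not well above background in any group. *Slc24a5*, a melanosome ion exchanger, was 0.35 higher in DT-treated than in untreated *Prestin*-*hDTR* mice, *Bace2*, which cleaves PMEL, and *Atp7a*, which brings copper to tyrosinase, were each 0.16 higher, and *Slc7a11*, a cystine transporter, was 0.05 higher. *Mfsd12*, a lysosome and melanosome transporter, was 0.13 lower, at -0.13.

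The machinery that builds and moves melanosomes and related organelles was measured in full, with all 15 genes above background on every array. In DT-treated against untreated *Prestin*-*hDTR* mice 10 were higher and 5 lower, with a median of 0.18, and the gene that differed most was *Rab32*, a small GTPase that delivers pigment enzymes to melanosomes, at 0.999, just under 2-fold. *Rab32* stood at -1.52, -1.44, -1.68 and -0.68 (wild-type without and with DT, then *Prestin*-*hDTR* without and with DT). None of the 15 genes reached 2-fold in any of the 4 comparisons. *Mlph*, the melanophilin that links melanosomes to their motor, differed most after DT in wild-type mice, at 0.34, and *Rab27a*, its partner, most between the untreated genotypes, at -0.44.

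Among 10 further regulators, ligands and receptors of the lineage, 8 were measured on all arrays. *Edn3*, the ligand of EDNRB, was not well above background in any group, and *Mc1r*, the melanocortin receptor, was well above it on 1. In DT-treated against untreated *Prestin*-*hDTR* mice 6 of the 8 were higher and 2 lower, with a median of 0.21. *Pax3*, which acts upstream of *Mitf*, differed most, at -1.83, -1.66, -1.85 and -1.13 in the order of arrays above, and its other probe gave 0.97 in this comparison against 0.72 for this one. Its partner *Sox10* stood at 2.60, 2.73, 2.59 and 2.92, and *Hgf*, a growth factor for melanocytes, at -3.69, -3.41, -3.62 and -3.02, so for these 3 genes the DT-treated *Prestin*-*hDTR* array was the highest. *Tfap2a*, a further transcription factor of the lineage, was 0.36 higher. *Kitl*, the ligand of KIT, and *Snai2*, a factor of neural crest migration, were higher by 0.08 and 0.09, and *Erbb3*, a neuregulin receptor, and *Lef1*, a Wnt effector, stood at -0.17 and -0.10.

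The other marker genes of strial intermediate cells had a median of 0.27 in this comparison, with 4 of 5 higher. *Cd44*, an adhesion receptor that leukocytes also carry, was 0.70 higher, the hepatocyte growth factor receptor *Met* 0.47, *Kcnj10* 0.27 and *Nrp2* 0.25. *Kcnj13*, a further inward rectifier, stood at 1.87 and 2.15 in untreated and DT-treated wild-type mice and at 1.64 in both *Prestin*-*hDTR* groups, so it did not differ there. The other cell types of the lateral wall had medians of 0.19 each: 7 of 8 marginal cell genes were higher, with *Bsnd*, a chloride channel subunit, at 0.46, and 5 of 7 basal cell and lateral wall genes, with *Cldn11*, the claudin of basal cells, at 0.45. Shares of this size in strial genes of other cell types stand beside the 7 of 9 in the pigment genes, and a difference between them was not tested.

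**Figure D5:**
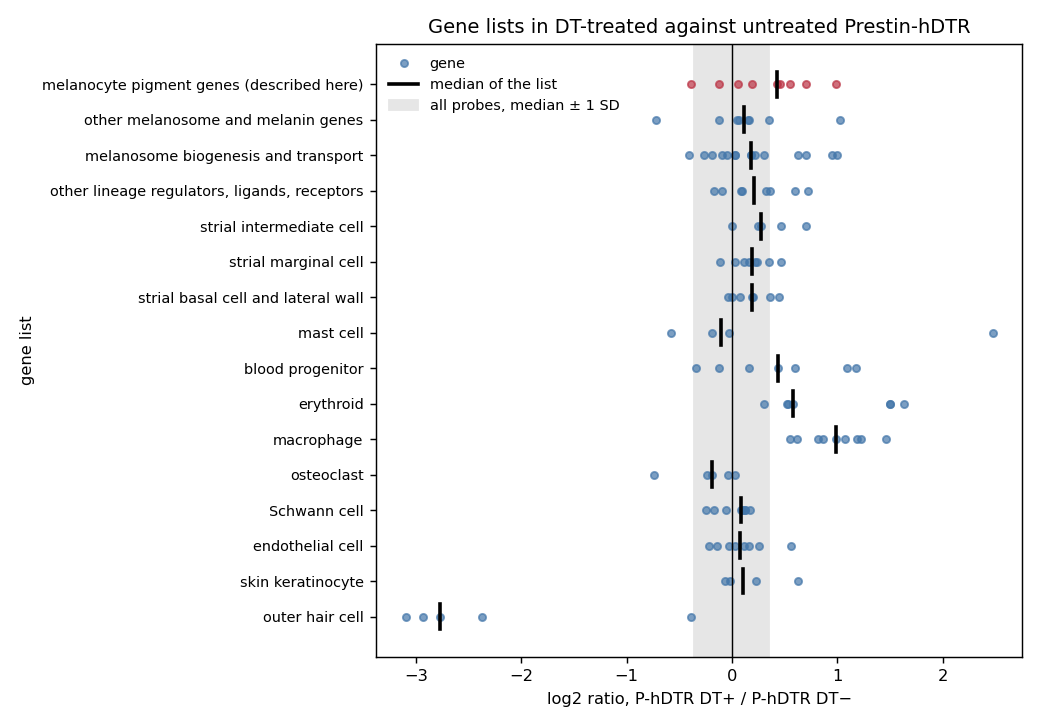
Log2 ratios of DT-treated to untreated *Prestin*-*hDTR* mice for the melanocyte genes (red) and 15 other gene lists (blue), with 1 point per gene and the median of each list as a black bar. The grey band gives the median ± 1 SD over all probes above background on both arrays. The medians are 0.42 for the melanocyte genes, 0.11 for other melanosome genes, 0.99 for macrophage genes and -2.77 for OHC genes.

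Several members are also known from other cell types: *Kit* from mast cells and blood progenitors, *Mitf* from macrophages, osteoclasts and mast cells, and *Ednrb* from glia and endothelium. Markers of these cells were therefore read in the same comparison. All 9 macrophage genes measured were higher in DT-treated than in untreated *Prestin*-*hDTR* mice, with a median of 0.99 and *Cd68*, a lysosomal protein of phagocytes, at 1.46, while *Cd163* was not well above background in any group. Summed over the 9 genes measured, the scaled intensity of macrophage genes was 16.3, 15.3, 14.1 and 25.2 (wild-type without and with DT, then *Prestin*-*hDTR* without and with DT). The macrophage genes thus stood highest on the same array as 7 of the 9 pigment genes and as *Gpnmb*, *Rab32* and *Cd44*, and their part in those values was not tested.

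The mast cell genes *Cma1*, *Ms4a2* and *Fcer1a* were not well above background on any array, and the 2 mast cell genes measured on all arrays summed to 0.634, 0.669, 0.719 and 0.544 in the same order. *Tpsab1*, a mast cell tryptase that was well above background only on the *Prestin*-*hDTR* arrays, stood at -6.04 in untreated and -3.57 in DT-treated *Prestin*-*hDTR* mice, higher by 2.48, and was higher by at least 1.91 than in DT-treated wild-type mice. The mast cell genes compared in DT-treated and untreated *Prestin*-*hDTR* mice thus held 1 higher and 3 lower, with a median of -0.11. Of the blood progenitor genes, 5 of 7 were higher in DT-treated than in untreated *Prestin*-*hDTR* mice, 2 of them by 2-fold or more, with a median of 0.43 and *Mpo*, the myeloperoxidase of myeloid cells, at 1.18, while *Kit* stood at -0.39. Against DT-treated wild-type mice 6 of the 7 were lower, with a median of -0.54. They summed to 9.10, 9.78, 7.28 and 7.61 in the order of arrays above. The part of mast cells and blood progenitors in the *Kit* values was not tested. The osteoclast genes measured on all arrays, 4 of 8, summed to 7.00, 5.85, 4.38 and 3.83. Of the 5 osteoclast genes compared in DT-treated and untreated *Prestin*-*hDTR* mice, 4 were lower in the former, with a median of -0.19. Their part in the *Mitf* values was not tested.

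Schwann cell genes were lower in DT-treated wild-type mice (8 of 8, median -0.41) and had a median of 0.09 in DT-treated against untreated *Prestin*-*hDTR* mice, where *Ednrb* was higher by 0.70. Endothelial genes had a median of 0.07 there, with *Cldn5*, a tight junction gene of vessels, at 0.56. Erythroid genes are a sign of blood in the tissue. The 6 of 8 measured on all arrays summed to 1.81, 4.55, 2.004 and 2.84 in the order of arrays above and were thus highest in DT-treated wild-type mice. In DT-treated against untreated *Prestin*-*hDTR* mice all 7 erythroid genes compared were higher, with a median of 0.58. Skin keratinocyte genes, markers of the skin where other melanocytes sit, had 4 of 8 measured on all arrays and summed to 0.981, 1.01, 0.960 and 1.16, with *Krt1* and *Dsg1a* not well above background on any array.

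Averaged over the 6 melanosome genes measured on all arrays and centred per gene, the level was -0.13 in untreated and -0.03 in DT-treated wild-type mice, and -0.13 in untreated and 0.29 in DT-treated *Prestin*-*hDTR* mice. This profile spanned 0.41 on the log2 scale, under the limit of 1 set for a search of genes with a like pattern, and none was made.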

How the data were processed

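Total RNA of pooled cochleae was labelled with Cy3 and hybridised to a 1-channel Agilent mouse array per group, all on the same slide. Per the labels, the authors extracted the spots with Agilent Feature Extraction 11.5.1.1, which gave the deposited intensity of a spot on a linear scale, corrected for its background and for gradients across the array. The mean spot and background intensity deposited beside it were used for 1 alternative. A deposited table of scaled signal values held this intensity divided by 1 constant per array.

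Control and outlier spots were left out, repeated spots were averaged, and the 75th percentile of the probes on an array was subtracted on the log2 scale, as the methods of the study state. The baseline transformation named there cancels in a ratio. A probe entered a comparison when over 0.5 of its spots on 1 or both arrays were well above background. On an array where it was not, the higher of its own signal and the lowest signal of any probe well above background was used, the fold being a lower bound. A gene with several probes was counted by the one with the highest mean.

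The 10 members, the 15 other lists (124 genes), the thresholds of 2-fold and 1.5-fold and the rule for named genes were chosen with earlier results of these data known. By that rule all members are named, all genes of the lists of melanosome, lineage and intermediate cell genes may be, and of every other list the gene that differed most in a comparison. *Cma1*, *Ms4a2*, *Fcer1a*, *Cd163*, *Krt1* and *Dsg1a* are named outside it, for being below background. Of the 124 list genes, 123 were found by their array name and 1 by a synonym. With 1 array per group no test was made, and member counts and medians stand beside those of all probes. The 8 alternatives changed the background correction (normexp with an offset of 50), scaling, source of values, filter, probe or threshold. Promoters came from RefSeq (GRCm38.p6) and probe positions from the array files (mm9), and the exon or UTR each probe lies in was not determined here. The counting steps were tested on simulated data. Python 3.11.15, numpy 2.4.6, pandas 2.3.3, matplotlib 3.10.9, R 4.3.3 and limma 3.58.1 were used.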

Additional observations from a re-analysis of the deposited data

How the results depend on the processing

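No paired analysis was possible because each group has 1 array and no result comes from a test, and for the same reason no replicate could be left out. In DT-treated against untreated *Prestin*-*hDTR* mice, the number of genes higher by 2-fold or more was 0, 1 with the deposited scaled values (*Tyr*) and 2 at a threshold of 1.5-fold. Of all 28082 probes compared, 700 were higher by 2-fold or more, 717 with the deposited values and 4.8% at 1.5-fold. The number lower by 2-fold or more was 0, and 1 without a filter and floor (*Oca2*, not well above background on the DT-treated array). Over all probes 379 of 28082 were lower, and 1546 of 39363 without a filter and floor. The median of the genes without a filter and floor was 0.31 in place of 0.42. In DT-treated *Prestin*-*hDTR* against DT-treated wild-type mice, the number higher was 2 at 1.5-fold, against 3.95% of all probes. The median of the genes there was 0.13 with normexp in place of 0.24. The 0.24 is the value of *Tyrp1*, which was 0.11 with normexp, where *Dct* at 0.13 became the median. Why *Tyrp1* differed with normexp was not tested. The cause of the other shifts was not tested either, except for those that follow by construction. A lower threshold and the absence of a filter admit more probes. The deposited values differ from those used here by 1 constant factor per array. With them the log2 ratios of the 9 genes in a comparison thus all moved by the same amount. The median after DT in wild-type mice, 0.04, was -0.01 without a filter and with the mean over the probes of a gene. Signs of single genes changed for *Kit* between the untreated genotypes (0.07 with median scaling), *Dct* after DT in wild-type mice (0.08 with quantile scaling) and *Mitf* there (-0.01 with the mean over probes). All other signs of the 9 genes were the same under each alternative, and *Tyr* in DT-treated against untreated *Prestin*-*hDTR* mice ranged from 0.91 to 1.01. The largest shift of the median of all probes was 0.0603, with median scaling between the untreated genotypes. The median of the genes there was 0.12 in place of 0.06. Signal over background limits the dim *Tyr* probe and *Oca2* to bounds or no fold.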
